A study of Mus musculus with 30 samples.

Results

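The state of mouse embryonic stem cells 12 h after auxin and dTAG13 were added was compared with the state at 0 h, over genes, repeats and non-coding transcription units. The comparison used every library labelled 12 h or 0 h, which gave 6 of the 15 libraries of the time course (12 of 30 GEO samples, since each library was sequenced in 2 runs), with 3 biological repeats per time. The cells belong to a line labelled dTKO with the genotype Suv39h1fl/fl; Suv39h2-/-; Setdb1fl/fl. The 0 h cells carry the same genotype and received the same labelling, so Suv39h2 is labelled as deleted in them too and they are not wild type. Auxin was given at 100 µg/ml and dTAG13 at 0.5 µM to cells kept in LIF and serum on gelatin. The labels do not state which proteins these compounds degrade or whether the line is a single clone. Nascent RNA was measured by TT-seq: RNA made in a 10 min pulse of 1 mM 4-thiouridine was purified and sequenced, with 1 µg of labelled yeast RNA added to 110 µg of total RNA. In these bulk samples, more cells with a transcript and more transcript per cell cannot be told apart.

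Methylation of lysine 9 of histone H3 is a mark of heterochromatin, the compact chromatin in which most transposable elements are held silent. SETDB1, brought to retroviral sequences by KRAB zinc finger proteins and TRIM28, deposits the mark over endogenous retroviruses, while SUV39H1 and SUV39H2 act mainly at pericentromeric satellites and at young LINE elements. Long terminal repeats (LTRs) of such retroviruses carry promoters that can also start transcripts of neighbouring genes, and a group of germline genes is kept silent in embryonic stem cells by the PRC1.6 complex, in which MGA and MAX bind E-box sequences.

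Values are reads per unit divided by 1 deposited factor per library, written below as scaled reads. A gene, repeat or unit was tested where its mean over all 15 libraries was at least 10 scaled reads, and it was called higher or lower where limma's Benjamini-Hochberg adjusted p was under 0.05. Log2 changes are of scaled reads plus 1, which understates the change of low genes. Total reads over all units ran from 37.6 to 39.5 M at 0 h and from 37.1 to 42.3 M at 12 h. The scale between libraries matters for small changes. With the deposited factors the median gene was higher at 12 h by 0.18 (log2), and dividing each library by its median ratio over genes ("rescaling over genes") brought that median to 0.00. The log2 rescaling factors were 0.05, 0.18 and 0.07 at 0 h and 0.10, 0.46 and 0.29 at 12 h. They overlapped between the groups, and their means differed by 0.18 (exact permutation test, two-sided p = 0.2; the smallest p that 3 against 3 libraries can give is 0.1). Both scalings are therefore given. Stem cell markers were present in every library: the summed signal per kb of the 9 markers of embryonic stem cells was 2290 to 2513 at 0 h and 1995 to 2580 at 12 h. That of 9 feeder fibroblast markers was 18.2 to 21.2 and 18.9 to 21.0, that of 8 primitive endoderm markers 9.10 to 11.1 and 8.19 to 10.1, and that of 6 trophectoderm markers 10.3 to 11.5 and 8.42 to 12.4. For 8 epiblast and germ layer markers it was 107 to 119 and 81.9 to 101. These sums show presence and do not describe single markers. In the embryonic stem cell sum the mean of Zfp42 rose from 134 per kb at 0 h to 356 at 12 h. Every other marker in that sum had a lower mean at 12 h, such as Nanog (246, then 171) and Pou5f1 (205, then 193). Feeder markers moved in both directions: the mean of Lum rose from 0.54 to 2.18 and that of Thy1 fell.

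The genes of the genotype label were read first. Setdb1 gave 847, 870 and 820 scaled reads at 0 h and 919, 1201 and 1117 at 12 h. Suv39h1 gave 450, 522 and 478, then 550, 683 and 626. Both were higher in all 3 libraries at 12 h, by 0.34 and 0.36 on the log2 scale (limma, Benjamini-Hochberg adjusted p 0.0463 and 0.041), which is 0.16 and 0.18 after rescaling. With the deposited factors neither call held without replicate 1 at 0 h (adjusted p 0.15 and 0.222), replicate 3 at 0 h (0.184 and 0.144), replicate 2 at 12 h (0.274 and 0.228) or replicate 3 at 12 h (0.18 and 0.135), and Setdb1 did not pass either without replicate 2 at 0 h (0.07). Suv39h2 gave 1044, 1175 and 1055, then 1091, 1354 and 1126, which overlap, and its change of 0.12 did not pass and turned to -0.06 after rescaling. Signal at this level goes against a label of full deletion unless the reads lie outside the deleted part, which the labels do not give, so Suv39h2 does not check that label. The compounds act on protein, so these transcripts do not check the time labels.

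Repeats gained signal, and 1 group of endogenous retroviruses, MMERVK10C with its RLTR10 LTRs, held the largest share of the gain. Repeats took, of all reads in repeat copies and in genes other than Rn45s (the ribosomal RNA precursor), 4.23%, 4.21% and 4.31% at 0 h and 5.30%, 5.32% and 5.18% at 12 h. The groups did not overlap, and the difference of 1.01 percentage points has the smallest exact permutation p this design allows (0.1). Without the MMERVK10C and RLTR10 copies the shares were 4.17%, 4.15% and 4.24%, then 4.56%, 4.57% and 4.49%, still apart. Of the 774 repeat families tested, 255 were called higher (32.9%) and 3 lower (0.388%) by limma at a Benjamini-Hochberg adjusted p under 0.05, and after rescaling 213 (27.5%) and 12 (1.55%). Without replicate 2 at 12 h the calls fell to 158 higher and 5 lower.

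MMERVK10C-int is the internal, protein-coding part of a class II endogenous retrovirus, and RLTR10C is one of its LTRs. MMERVK10C-int gave 8871, 9687 and 8912 scaled reads at 0 h and 124153, 156865 and 125704 at 12 h, up by 3.88 on the log2 scale (SE 0.12), or 3.70 after rescaling (limma adjusted p 9.36e-26). RLTR10C gave 680, 746 and 718, then 6678, 8863 and 8817, a rise of 3.49 (SE 0.12). Internal part and LTR thus rose together, with every 12 h library far above every 0 h library, a separation also found in 42.2% of all tested families (and in 29.9% of tested copies). All copies of this group summed to 1.64% of the repeat signal at 0 h and 14.5% at 12 h, and they held 45% of the gain in repeat signal. The gain was uneven within the group: 40 of its 4866 copies carried the first 50% of its summed gains. Of its 878 tested copies 732 were called higher and none lower, against 20.8% called higher among all 13519 tested copies. Many copies passed the minimum signal only through their later libraries. The group was therefore also counted over copies with a mean of at least 10 scaled reads at 0 h, where 136 of 189 were higher and 0 lower. Under that minimum 606 of all 11719 copies were higher and 146 lower.

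**Figure D1:**
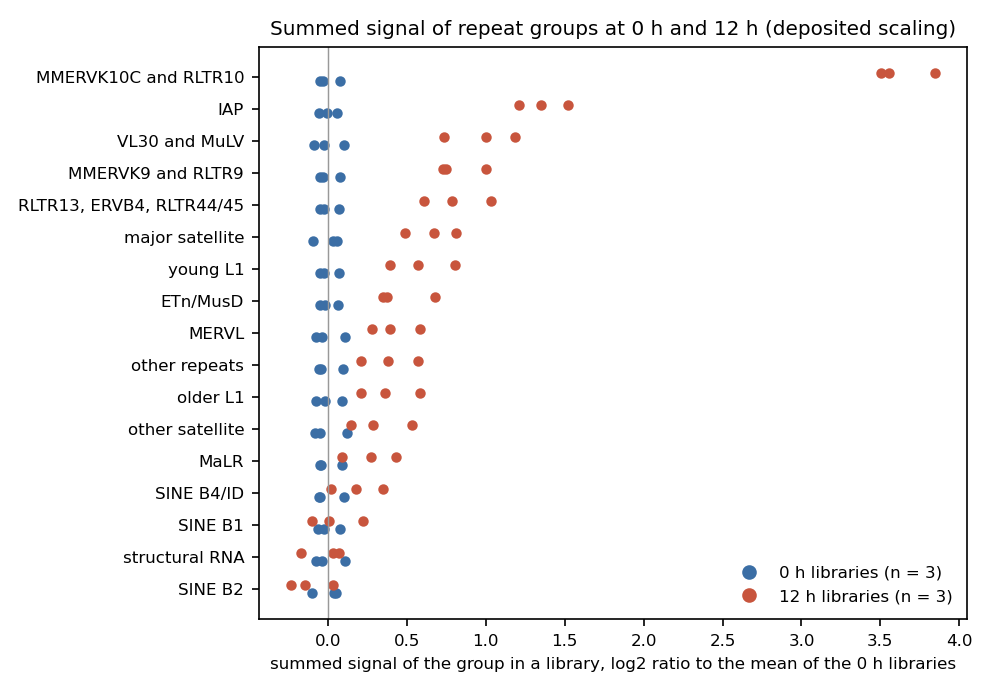
Summed signal of each repeat group in each of the 6 libraries, as the log2 ratio to the mean of the 0 h libraries (deposited scaling). MMERVK10C and RLTR10 copies stand 12.5-fold above 0 h, IAP copies 2.58-fold, and the 12 h and 0 h libraries of MaLR, SINE B1, B2, B4/ID and structural RNA copies overlap.

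Other retroviral groups rose less and in different proportions. IAPEz-int, the internal part of intracisternal A particles, gave 4660, 4934 and 4844 scaled reads at 0 h and 12227, 14821 and 12966 at 12 h, up by 1.47 on the log2 scale (SE 0.12), 1.29 after rescaling (limma adjusted p 1.1e-20). Of 913 tested IAP copies 449 were called higher and 0 lower. With the minimum set at 0 h these were 31 and 1 of 158, beside 606 and 146 of 11719 over all copies. Most IAP copies called were thus ones with little signal at 0 h. Of 217 VL30 and MuLV copies 112 were higher and 0 lower, of 568 ETn/MusD copies 292 and 4, and of 148 MMERVK9 and RLTR9 copies 84 and 0, beside 20.8% higher among all tested copies. Many of these copies too passed the minimum only through later libraries: with the minimum set at 0 h the counts were 35 and 0 of 113, 82 and 2 of 249, and 14 and 0 of 74. RLTR1B-int, the most abundant family of the VL30 and MuLV group, rose from 7736, 8519 and 7328 to 13008, 17902 and 15459, by 0.97 (SE 0.12). MMETn-int, the most abundant of the ETn/MusD group, gave 52513, 56325 and 52739 and then 62068, 77838 and 60374. These values did not overlap, but the change of 0.30 (limma adjusted p 0.0393) was lost after rescaling (0.12, adjusted p 0.0639) and without replicate 1 at 0 h (0.123), replicate 3 at 0 h (0.116) or replicate 2 at 12 h (0.294). The steepest rises among the smaller families were those of IAPLTR3-int (2.71), ERVB4_1B-I_MM-int (2.70), MuRRS4-int (2.34) and IAPEy-int (2.33), in each of which all 12 h libraries exceeded all 0 h libraries. MERVL, the retrovirus transcribed in 2-cell embryos, had moved little over its copies: 46 of 340 were higher and 3 lower (10 and 2 of 206 with the minimum set at 0 h), and its internal part MERVL-int went from 2161, 2544 and 2262 to 3260, 4053 and 3708, by 0.66 (SE 0.12) or 0.48 after rescaling (limma adjusted p 3.5e-11).

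The single copies that rose most by rule had few or no reads at 0 h, which such a ranking favours, so they do not describe their groups. The MMERVK10C-int copy at chromosome 8, 4682432-4687356, on the minus strand had 0 reads in all 3 libraries at 0 h and 412, 516 and 484 scaled reads at 12 h, at least 563-fold higher against a floor of 3 reads over the 3 libraries. An ETnERV2-int copy at chromosome X, 4658650-4660488, also had 0 reads at 0 h and then 180, 190 and 188 scaled reads, at least 223-fold higher. An MMERVK10C-int copy at chromosome 12, 20868011-20869022, had 1 read at 0 h and 835 at 12 h, giving a ratio of 878 (exact 95% interval 157 to 34726, counting error only). The non-coding unit that contains this copy, at chromosome 12, 20866601-20877001, went from 6.50, 4.99 and 7.72 to 740, 978 and 752 scaled reads. The assignment of reads with several positions is not stated in the labels, so the values of single copies are uncertain.

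The LINE family L1Md_T and the major satellite rose, with calls over single LINE copies counted apart for young and older families. Of 881 tested copies of young L1 families 252 were higher and 1 lower, and of 1136 older L1 copies 138 and 2, a smaller share than the 20.8% higher over all tested copies. With the minimum set at 0 h these were 84 and 0 of 594 young and 35 and 1 of 1113 older copies. Over all copies under that minimum, 606 of 11719 were higher and 146 lower. L1Md_T, the most abundant young family, gave 30902, 32997 and 31215 scaled reads at 0 h and 42575, 57180 and 47665 at 12 h, up by 0.62 on the log2 scale (SE 0.12), 0.44 after rescaling (limma adjusted p 1.64e-09). GSAT_MM, the pericentromeric major satellite that SUV39H enzymes mark, gave 1102, 1200 and 1222 and then 1647, 2063 and 1876, a rise of 0.66 (SE 0.12), 0.48 after rescaling (limma adjusted p 7.65e-09). Neither family had overlapping groups.

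SINE B2 elements, short repeats that are common in and near genes, were called lower more often than higher. Of 2188 tested B2 copies 47 were called higher and 170 lower (1.83% of all tested copies were lower), and after rescaling 34 and 338 (3.98% of all). The 170 became 74 without replicate 3 at 0 h and 113 without replicate 2 at 0 h, and the 47 became 29 without replicate 2 at 12 h. B2_Mm1t, a young B2 family, gave 21245, 23172 and 25019 scaled reads at 0 h and 17225, 19670 and 18277 at 12 h, which do not overlap. All 12 h libraries lay below all 0 h libraries in 0.646% of tested families and 5.16% of tested copies. B2_Mm1t fell by 0.33 on the log2 scale, and by 0.51 after rescaling (limma adjusted p 1.31e-09). With the deposited factors the call of B2_Mm1t was lost without replicate 3 at 0 h (limma adjusted p 0.13) or replicate 3 at 12 h (0.0611). B2_Mm1a fell by 0.31 and, after rescaling, by 0.49, and its deposited-scale call was lost without replicate 2 at 0 h (limma adjusted p 0.0848), replicate 3 at 0 h (0.125) or replicate 3 at 12 h (0.156). The third family called lower among all repeats, RMER16B2, was counted under other repeats and not under B2. It fell by 0.39 and lost that call without replicate 1 at 0 h (limma adjusted p 0.111), replicate 2 at 0 h (0.0963) or replicate 3 at 12 h (0.246). B1 copies were mixed, with 66 of 1698 higher and 44 lower, and 42 and 85 after rescaling, so the larger direction flipped with the scale, and it also flipped without replicate 2 at 12 h (30 and 45). Without replicate 3 at 0 h the B1 counts were 45 and 26. With the minimum set at 0 h, which favours falls, the B1 direction flipped as well, with 16 higher and 30 lower of 1935. B2 copies then had 11 higher and 102 lower of 2651. Of 925 B4 and ID copies 44 were higher and 4 lower (27 and 4 without replicate 2 at 12 h), and of 1068 MaLR copies 103 and 9 (61 and 9 without replicate 2 at 12 h). With the minimum at 0 h these were 14 and 0 of 996 and 30 and 3 of 1085. All copies together had 606 higher and 146 lower of 11719 under that minimum.

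Among 15261 genes tested, limma called 1972 higher (12.9%) and 316 lower (2.07%) at 12 h with the deposited factors, and 2407 (15.8%) and 2270 (14.9%) after rescaling. The share of calls that were higher was 86.2% and 51.5%, so the balance of small changes rests on the scale. Large changes were mostly upward under both: 348 genes rose and 37 fell at least 2-fold with the deposited factors, and 261 and 73 after rescaling. The number of calls also moved with single libraries. It was 5271 higher and 276 lower without replicate 1 at 12 h, 855 and 339 without replicate 2 at 12 h, 1124 and 218 without replicate 3 at 12 h, 1001 and 220 without replicate 1 at 0 h, 1862 and 197 without replicate 2 at 0 h, and 1037 and 215 without replicate 3 at 0 h. The 30 genes with the steepest rises and falls (15 each) kept their calls whichever of the 6 libraries was left out. In 23.9% of tested genes all 3 libraries at 12 h lay above all 3 at 0 h, and in 4.84% below.

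Under the naming rule, most of the genes with the steepest rises had little signal at 0 h, which a ranking by log2 change favours. Clec2f, in the cluster of C-type lectin-like receptor genes of natural killer cells (a transcribed pseudogene in GENCODE; chromosome 6, 129014112-129020527), gave 3.25, 3.33 and 2.57 scaled reads at 0 h and 293, 418 and 346 at 12 h, up by 6.44 on the log2 scale (SE 0.15), 6.23 after rescaling (limma adjusted p 9.02e-24). Its neighbour Clec2g (chromosome 6, 128934381-128984707) went from 20.3, 21.6 and 18 to 539, 720 and 641, by 4.91 (SE 0.13). Mmp12, which encodes macrophage elastase (chromosome 9, 7344397-7360461), went from 21.9, 34.1 and 24.0 to 403, 548 and 497, by 4.14 (SE 0.14). The 15 named risen genes run from Clec2f down to Clec2i (3.09), and their groups do not overlap because the naming rule required it. Mctp1, a calcium-binding membrane protein gene of chromosome 13, 76384961-77031810, had the highest signal of the 15, with 86.2, 101 and 97.7 at 0 h and 1002, 1245 and 1040 at 12 h (log2 rise 3.51, SE 0.13). Rdh16, a retinol dehydrogenase gene, had 2 reads at 0 h and 141 at 12 h, giving a ratio of 74.1 (exact 95% interval 20.1 to 618). The Clec2 genes, like other gene families with close relatives, can share reads, and their separate values are uncertain.

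**Figure D2:**
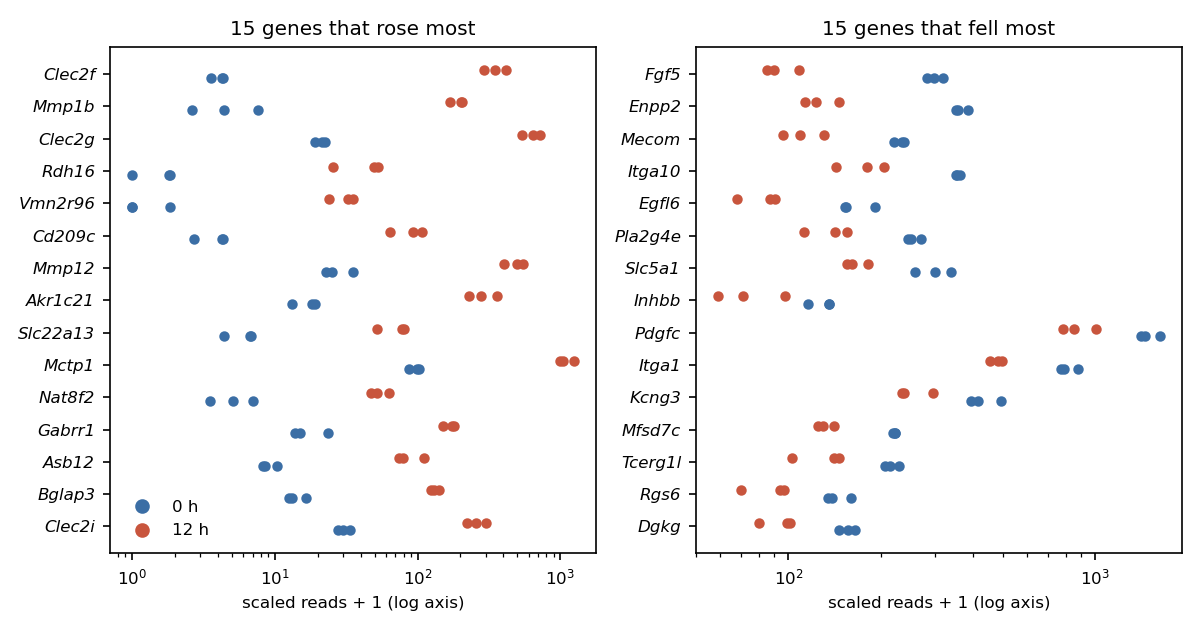
Scaled reads plus 1 (log axis) in each library for the 15 most risen (left) and 15 most fallen genes (right) under the naming rule, with 3 points per time. The 0 h and 12 h points of a gene do not overlap, which the rule required. Most risen genes start low (Clec2f at 2.57 to 3.33 scaled reads) whereas the fallen genes start at 115 or more. The rule favours this contrast, since it asked for a mean over all 15 libraries above 71.3 scaled reads. Genes that start low pass that only through later libraries.

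Receptor genes best known from immune and sensory cells were also tested. Of 41 listed C-type lectin-like receptor genes 26 were in the table and 9 had enough signal to be tested, of which 8 rose and 0 fell (median log2 change 1.77, against 0.18 over all genes tested), with the same counts after rescaling. Cd209e, a relative of the dendritic cell lectin DC-SIGN, rose by 1.77 and Clec2d by 1.59. Of 250 olfactory and vomeronasal receptor genes only 25 were tested, and 18 of them rose (17 after rescaling, with 1 lower). The share that rose over all genes tested was 12.9%, and 15.8% after rescaling. With the minimum set at 0 h, 3 of 4 lectin-like and 6 of 14 olfactory and vomeronasal genes rose, beside 1767 of 15268 over all genes. Vmn2r20, a vomeronasal pheromone receptor gene on chromosome 6, had 0 reads at 0 h and 16.1, 23.7 and 12.3 scaled reads at 12 h, at least 20.7-fold higher against the floor of 3 reads over the 3 libraries.

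Some of the genes that rose lay next to LTR copies that rose. Of 5587 tested LTR copies 2042 were called higher under both scalings. The start of 49 of the 348 genes called at least 2-fold higher (14.1%) lay within 10 kb of such a copy, compared with 54 of the other 1624 genes called higher (3.33%), 74 of 12973 genes without a call (0.570%) and 0 of 316 genes called lower. Over all tested genes the share was 1.16%. Nearness to any tested LTR copy, risen or not, had the same order: 17.0%, 7.27%, 4.67% and 2.53%, and 5.18% over all tested genes. These tested copies include the risen ones, so that order is not independent of them. Copies also counted as tested through later libraries, and nearness to copies that had not risen was not counted apart. Within 50 kb the shares were 27.0%, 10.7%, 3.79% and 1.27%, and 5.00% over all. In 12 of the 348 genes a risen copy lay inside the gene on the same strand, where its reads may count toward the gene.

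Among the 15 named risen genes, Cd209c, Nat8f2, Slc22a13, Akr1c21 and Asb12 had a risen LTR copy on the same strand close to their start. Cd209c (chromosome 8, 3940222-3946863), another DC-SIGN relative, starts inside an MMERVK10C-int copy. It gave 3.25, 3.33 and 1.71 scaled reads at 0 h and 63.4, 106 and 91.3 at 12 h, up by 4.55 on the log2 scale (SE 0.17). Slc22a13, an organic anion transporter gene, lies 476 bp from an RLTR10E copy and went from 5.69, 5.82 and 3.43 to 50.7, 80.1 and 76.3, by 3.55 (SE 0.18). Akr1c21, a hydroxysteroid dehydrogenase gene, lies 1459 bp from an LTRIS2 copy and went from 12.2, 18.3 and 17.1 to 230, 358 and 278, by 4.10 (SE 0.15). For each of these genes the 12 h values lay far above those at 0 h.

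Nat8f2, an N-acetyltransferase family gene (chromosome 6, 85865422-85869137), starts 67 bp from an ERVB7_2B-LTR_MM copy (85869204-85869541) on its own strand, and its promoter window is shown because the LTR reaches into it. The window runs from 250 bases before to 50 bases after the RefSeq start (GRCm38.p6, chr6:85869088-85869387, minus strand), and capitals mark the 184 bases inside the LTR copy.
Nat8f2: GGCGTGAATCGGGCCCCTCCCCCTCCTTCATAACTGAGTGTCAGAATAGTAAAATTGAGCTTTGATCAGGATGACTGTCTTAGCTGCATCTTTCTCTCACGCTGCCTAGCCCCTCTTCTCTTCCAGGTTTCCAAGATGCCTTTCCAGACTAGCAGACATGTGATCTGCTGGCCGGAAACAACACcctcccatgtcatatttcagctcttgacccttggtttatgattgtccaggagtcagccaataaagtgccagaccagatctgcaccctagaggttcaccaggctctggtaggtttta
Nat8f2 gave 4.06, 2.5 and 6 scaled reads at 0 h and 46.5, 61.9 and 50.9 at 12 h, up by 3.43 on the log2 scale (SE 0.20), 3.23 after rescaling (limma adjusted p 2.04e-14). A window within 1000 bp of the gene's start in the table was found for 11128 tested genes. Of these windows 3 overlapped a risen LTR copy: those of Cd209c, Nat8f2 and Sp110. Sp110, a nuclear body protein gene, overlaps an MT2_Mm copy and did not pass (log2 change 0.01).

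**Figure D3:**
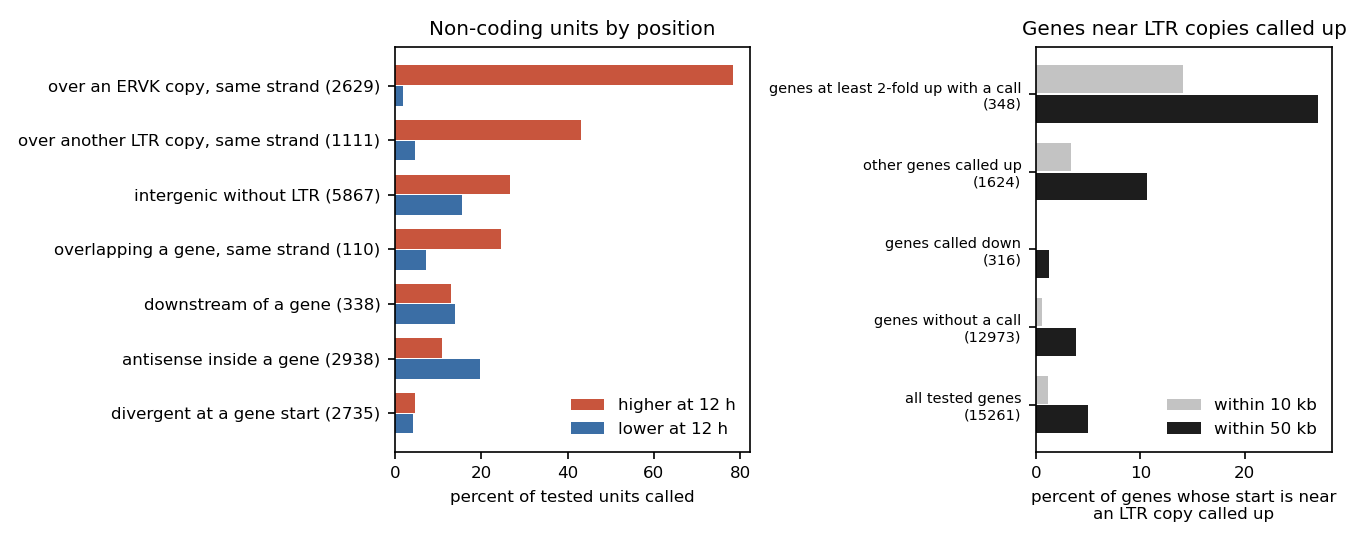
Left: percent of tested non-coding units called higher or lower at 12 h by position, with the number tested in brackets. Right: percent of genes whose start lies within 10 kb or 50 kb of an LTR copy called higher under both scalings, highest (14.1% and 27.0%) in genes called at least 2-fold higher and 0% and 1.27% in genes called lower.

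Germline genes, which act in meiosis and in transposon silencing by piRNAs, rose as a group. Of 27 listed genes 26 were in the table and 24 were tested. Of these, 18 rose, 0 fell and 6 did not pass (12.9% higher and 2.07% lower over all genes), with a median log2 change of 1.02 against 0.18 over all genes. After rescaling 17 rose and 0 fell. Leaving out single libraries gave 16 to 19. Most had clear signal at 0 h: 18 of 25 rose when the minimum was set at 0 h.

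Mov10l1, an RNA helicase needed to make piRNAs (chromosome 15, 88982994-89055152), gave 146, 146 and 155 scaled reads at 0 h and 439, 569 and 516 at 12 h. It rose by 1.75 (SE 0.13), or 1.57 after rescaling (limma adjusted p 2.05e-20). Stk31, a testis kinase-like gene, had the most signal of the 5 genes described here, at 1101, 1176 and 942 and then 2613, 3482 and 2843, a rise of 1.47 (SE 0.12). Mael, a piRNA pathway factor, went from 189, 238 and 208 to 560, 663 and 556 (1.48, SE 0.13), and Tex11, an X-linked meiotic gene, rose by 1.37 (SE 0.13). Sycp1, a central part of the synaptonemal complex that joins homologous chromosomes, went from 337, 414 and 363 to 754, 965 and 699, by 1.11 (SE 0.13). No germline gene named so far had overlapping groups.

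Other members rose as well: Slc25a31 by 1.98, Tex101 by 1.77, Taf7l by 1.64, Dazl by 1.47, Ddx4 (the germ cell helicase VASA) by 1.05 and Stag3, a meiotic cohesin subunit, by 0.99. The members that did not pass were Tdrd1 (0.45), Tdrd9 (0.32), Ddx25 (0.25), Smc1b (0.22), Piwil2 (0.07) and Syce1 (0.03). Tdrd1 passed without replicate 1 at 12 h (limma adjusted p 0.0108), Meioc (0.53) lost its call without replicate 2 at 12 h (0.0562), and Tktl2 (0.88) lost its call after rescaling (0.0523) and without replicate 1 at 0 h (0.431) or replicate 2 at 12 h (0.0629).

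Promoter windows of the germline genes were read because their members moved together. The palindromic E-box CACGTG was present in 13 of 21 windows (61.9%), in 10 of the 16 windows of genes called higher and in 3 of the 5 of genes without a call. In windows of all tested genes it was present in 10.3%, and in all 32851 RefSeq windows in 7.15%. Among genes called at least 2-fold higher it was in 23 of 244 windows (9.43%), a share no larger than that of all tested genes. The E2F-type motif TCCCGC, searched on both strands, was present in 10 of 21 germline windows and in 36.1% of the windows of tested genes. It was in 13.5% of windows of genes called at least 2-fold higher and in 20.0% of all RefSeq windows. None of the 21 windows overlapped a risen LTR copy. Below are the windows of 4 E-box genes described above, chosen after their values were seen, 250 bases before to 50 after the start, with the E-box in capitals (RefSeq, GRCm38.p6: Mov10l1 chr15:88982744-88983043, plus strand; Mael chr1:166238695-166238994, minus; Stk31 chr6:49395354-49395653, plus; Sycp1 chr3:102936051-102936350, minus).
Mov10l1: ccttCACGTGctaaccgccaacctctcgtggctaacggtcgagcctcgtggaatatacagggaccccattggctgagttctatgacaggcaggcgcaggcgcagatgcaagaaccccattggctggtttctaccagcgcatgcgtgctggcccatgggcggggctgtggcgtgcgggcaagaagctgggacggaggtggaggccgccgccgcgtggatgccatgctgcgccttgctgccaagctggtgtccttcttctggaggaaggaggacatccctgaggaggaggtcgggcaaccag
Mael: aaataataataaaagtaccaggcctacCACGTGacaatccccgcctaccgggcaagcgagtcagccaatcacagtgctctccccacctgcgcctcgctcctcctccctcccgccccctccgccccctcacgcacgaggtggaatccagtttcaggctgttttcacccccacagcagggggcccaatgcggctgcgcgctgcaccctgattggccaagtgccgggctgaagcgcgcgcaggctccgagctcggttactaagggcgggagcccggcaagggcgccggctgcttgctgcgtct
Stk31: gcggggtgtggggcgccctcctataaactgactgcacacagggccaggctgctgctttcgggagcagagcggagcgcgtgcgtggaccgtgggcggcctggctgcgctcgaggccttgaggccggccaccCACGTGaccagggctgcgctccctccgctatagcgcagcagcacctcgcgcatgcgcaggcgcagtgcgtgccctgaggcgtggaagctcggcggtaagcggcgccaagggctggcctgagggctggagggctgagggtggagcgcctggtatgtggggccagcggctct
Sycp1: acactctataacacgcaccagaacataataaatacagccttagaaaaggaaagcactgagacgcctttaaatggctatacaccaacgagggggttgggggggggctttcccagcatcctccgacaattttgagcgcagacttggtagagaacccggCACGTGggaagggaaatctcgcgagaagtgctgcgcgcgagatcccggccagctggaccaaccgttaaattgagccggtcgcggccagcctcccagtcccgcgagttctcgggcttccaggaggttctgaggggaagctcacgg
The motif begins 246 bases before the start in Mov10l1, 223 in Mael, 120 in Stk31 and 94 in Sycp1. A match describes the letters only. E2f6 and Mga, which encode subunits of PRC1.6, changed by 0.36 (limma adjusted p 0.0408, lost in all but 1 of the 6 fits that leave out a library, with replicate 1 at 12 h the exception) and 0.27 (adjusted p 0.11).

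Genes of the 2-cell-like state, a rare state of embryonic stem cells in which genes of the 2-cell embryo are transcribed, rose in part. Of 36 listed genes 33 were in the table and 19 were tested, with 10 higher, 1 lower and a median of 0.89, and 9 and 1 after rescaling. Over all genes 12.9% were higher and 2.07% lower, and 15.8% and 14.9% after rescaling. Zscan4f, of the telomere-related Zscan4 cluster on chromosome 7, went from 12.2, 16.6 and 13.7 scaled reads to 53.3, 47.3 and 52.6, a log2 rise of 1.79 (SE 0.17), 1.61 after rescaling (limma adjusted p 1.27e-09). Usp17le, a deubiquitinase gene, went from 4.88, 4.99 and 6 to 22, 44.6 and 40.4, by 2.49 (SE 0.22). Pramel7 went the other way, by -1.18. The Zscan4 and Usp17l genes are near-identical copies, so reads may be divided among them arbitrarily. The summed signal of the list was low, at 224 to 248 scaled reads at 0 h and 350 to 480 at 12 h, and with the minimum set at 0 h 3 of 6 tested genes rose and 1 fell.

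**Figure D4:**
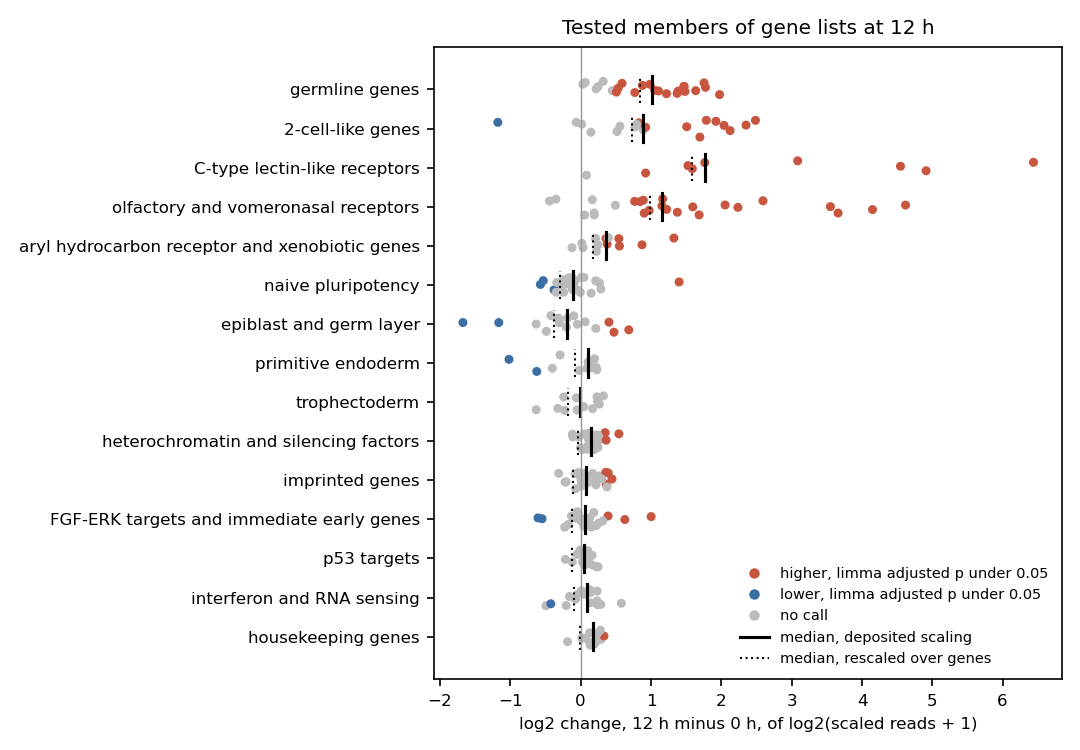
Log2 change at 12 h of the tested members of 15 gene lists. Each point is a gene, coloured by its limma call with the deposited factors, and bars give list medians under both scalings. Germline genes (median 1.02) and C-type lectin-like receptors (1.77) lie to the right, while pluripotency, p53 and housekeeping genes lie near 0.

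Calls among pluripotency genes depended on the scale, and Zfp42 and Nanog were called under both. Of 27 tested genes of the naive state, 1 rose and 3 fell with the deposited factors (median -0.11), and 2 rose and 21 fell after rescaling (median -0.29), beside 2.07% and then 14.9% lower over all genes, so the count of falls rests on the scale. Without replicate 1 at 12 h the counts were 4 and 2, and without replicate 3 at 12 h they were 1 and 1. Zfp42 (Rex1), a zinc finger gene used as a marker of naive cells (chromosome 8, 43295067-43307009), went up: 1533, 1677 and 1597 scaled reads at 0 h and 3669, 4750 and 4333 at 12 h, up by 1.40 on the log2 scale (SE 0.12), 1.22 after rescaling (limma adjusted p 3.7e-23). A risen RLTR4_MM-int copy lies on its strand 5293 bp from its start. Nanog, a core pluripotency factor, went down, from 1659, 1922 and 1684 to 1000, 1397 and 1274, by -0.53 (SE 0.12), or -0.71 after rescaling (limma adjusted p 2.32e-15). The groups of both genes were apart. Nr0b1 fell by 0.57, a call lost without replicate 3 at 12 h (limma adjusted p 0.0589). Pou5f1 (-0.10), Sox2 (-0.21) and Esrrb (-0.09) did not pass with the deposited factors.

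The genes that fell most under the naming rule included growth factors, adhesion receptors and an enzyme of lipid signalling. Fgf5, a growth factor of the primed epiblast (chromosome 5, 98254184-98277033), gave 282, 318 and 297 scaled reads at 0 h and 88.8, 107 and 84.2 at 12 h. It fell by 1.67 on the log2 scale (SE 0.15), and by 1.85 after rescaling (limma adjusted p 6.72e-17). Enpp2, which encodes the lysophosphatidic acid-producing enzyme autotaxin (chromosome 15, 54838901-54920146), went from 350, 383 and 356 to 122, 146 and 112 (-1.52, SE 0.15). Mecom, also called Prdm3, is a zinc finger regulator reported to methylate H3K9, and it went from 220, 233 and 237 to 94.7, 129 and 108 (-1.06, SE 0.15). In all 3 genes every 12 h library was below every 0 h library, as the naming rule required.

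Itga10 (-1.03) and Itga1 (-0.77), integrin subunits that bind collagen, Pdgfc (-0.77), a platelet-derived growth factor, and Inhbb (-0.79), the activin beta B subunit, also fell. Their groups were apart, as the naming rule required. Foxd3, a transcription factor of the epiblast, fell from 95.1, 94.0 and 99.4 to 36.3, 55.5 and 37.7, by 1.16 (SE 0.18). The epiblast and germ layer list as a whole had 3 of 16 tested genes higher and 2 lower, 3 and 11 after rescaling, and 1 and 3 without replicate 2 at 12 h. This list and those that follow here stand beside 12.9% higher and 2.07% lower over all genes, and 15.8% and 14.9% after rescaling. Lefty1, a NODAL antagonist, was among the higher ones (0.68, limma adjusted p 2.77e-06). In a list of FGF-ERK targets 3 of 22 genes rose and 2 fell, and 4 and 5 after rescaling: Etv1 rose by 1.00 (SE 0.12) while Spry4 fell by 0.55 and Myc by 0.61. Hhip, a hedgehog-binding protein and target, fell by 0.71 (SE 0.15), within a list of hedgehog, WNT, BMP and NODAL targets in which 2 of 16 genes rose and 3 fell, and 2 and 9 after rescaling. That list had 5 and 3 without replicate 1 at 12 h and 1 and 4 without replicate 2 at 12 h.

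The miR-302 cluster, whose miRNAs are typical of pluripotent cells and act on the cell cycle, fell as well. Mir302a was named by rule, and its 4 neighbours were added after their values were seen. The 5 genes lie within chromosome 3, 127545228-127545807, on the plus strand, opposite to Larp7. Their mature 3p strands in RefSeq are shown with the seed (bases 2 to 8) in capitals, beside members of the miR-290 cluster of chromosome 7 that share a seed with them.
miR-302b-3p: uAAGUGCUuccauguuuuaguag
miR-302d-3p: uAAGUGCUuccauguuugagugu
miR-302c-3p: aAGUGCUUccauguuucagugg
miR-367-3p: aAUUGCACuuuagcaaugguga
miR-291a-3p: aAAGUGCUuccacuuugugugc
miR-294-3p: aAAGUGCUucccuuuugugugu
miR-295-3p: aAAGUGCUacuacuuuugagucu
The seed AAGUGCU is shared by miR-302b, miR-302d, miR-291a, miR-294 and miR-295, and miR-302c has the same letters from 1 base earlier in its listed sequence. Mir302a gave 49.6, 49.1 and 60.9 scaled reads at 0 h and 18.6, 25.5 and 20.2 at 12 h (log2 change -1.28, SE 0.22; limma adjusted p 4.87e-08 after rescaling). Mir302b gave 60.2, 65.7 and 57.4, then 27.0, 22.7 and 28.1 (-1.21). Mir302c and Mir302d both changed by -1.17 and Mir367 by -0.88, and all 5 calls held without any single library of the 6 and after rescaling (-1.04 to -1.45).

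At the gene named Mir294 the values were 193, 205 and 180 at 0 h and 174, 218 and 185 at 12 h, which overlap. All 7 genes of the miR-290 cluster that were tested had changes between -0.10 and 0.11 with no call, and between -0.28 and -0.07 after rescaling, where 4 of the 7 were called lower. Larp7, on the strand opposite to the miR-302 cluster, changed by -0.26 (limma adjusted p 0.144), or -0.44 after rescaling (adjusted p 9.38e-10). These values are nascent reads over the hairpin genes, of which the miR-302 hairpins have few, and not levels of mature miRNAs. The labels do not state the strand setting of the counting, so part of such reads may come from the opposite strand.

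**Figure D5:**
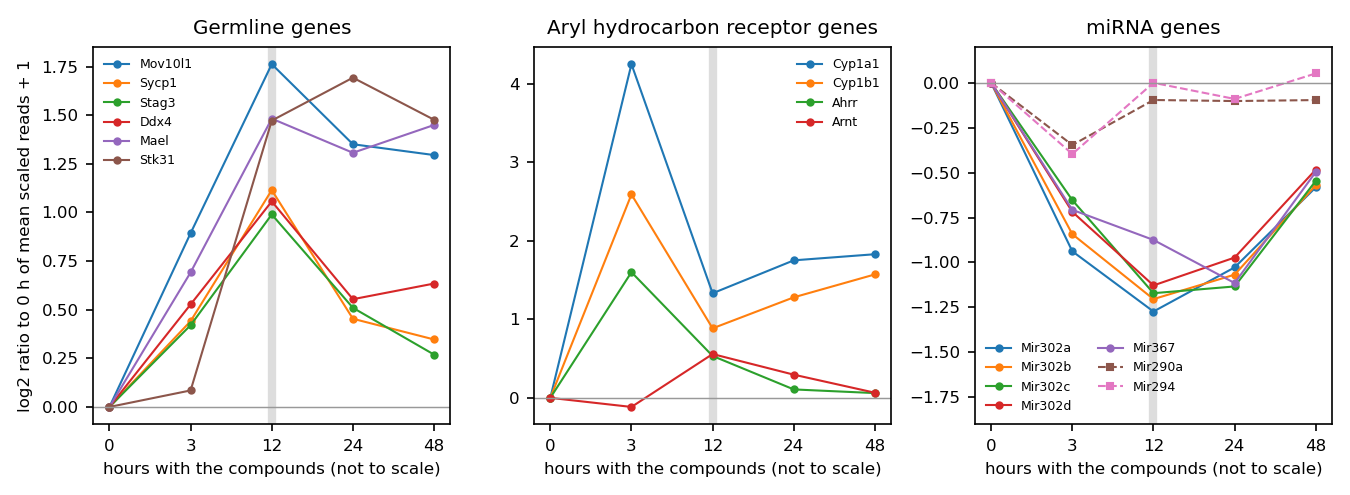
Mean scaled reads plus 1 at each time as the log2 ratio to 0 h (n = 3 libraries per point, deposited scaling), with a grey bar at 12 h. Germline genes (left) are above 0 h at 12 h, Cyp1a1, Cyp1b1 and Ahrr (middle) had been higher at 3 h than at 12 h, and the miR-302 cluster (right, circles) lies below 0 h while the miR-290 cluster (squares) is back near it.

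A list of aryl hydrocarbon receptor and xenobiotic genes was mixed at 12 h. The receptor is a sensor of foreign compounds and of tryptophan products. Because the list also holds xenobiotic genes such as Nqo1, Gclm and Hmox1, its counts do not describe the receptor alone. Of 13 tested genes 6 were higher and 0 lower (12.9% and 2.07% over all genes), and 5 and 3 after rescaling (15.8% and 14.9% over all). The 6 became 3 without replicate 3 at 0 h. Cyp1a1, the receptor's best-known target, gave 7.32, 6.65 and 4.29 scaled reads at 0 h and 20.3, 11.8 and 18.4 at 12 h, a log2 rise of 1.33, 1.15 after rescaling (limma adjusted p 0.000234), while its mean at 3 h was 134. Cyp1b1 went from 32.5, 34.1 and 41.1 to 52.4, 78.2 and 71.1, by 0.87, 0.69 after rescaling (limma adjusted p 4.23e-05), with a mean of 222 at 3 h. Both genes stayed above 0 h in all 3 libraries, at a lower level than at 3 h. Ahrr, the receptor's repressor, rose by 0.54, a call lost without replicate 3 at 0 h (limma adjusted p 0.188), and Arnt, its partner, by 0.55 (limma adjusted p 0.000193), though its change at 3 h was -0.12 and did not pass. Tiparp, another target, had a mean of 2660 scaled reads at 0 h, 4222 at 3 h and 2706 at 12 h, and its change of 0.02 at 12 h did not pass with the deposited factors. No vehicle control is among the samples, so effects of the compounds and of protein loss cannot be told apart.

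Some genes were higher at 12 h than at 0, 3 and 24 h, with 48 h not compared. With the deposited factors, 456 genes (2.99%) were higher at 12 h than at 0, 3 and 24 h in all 3 limma contrasts and 0 were lower (0 also by edgeR and by DESeq2 with the same factors), and after rescaling 156 (1.02%) were higher and 132 (0.865%) lower. Of these, 105 genes were higher under both scalings. The 456 became 3290 without replicate 1 at 12 h, 19 without replicate 2 at 12 h, 80 without replicate 3 at 12 h, 118 without replicate 1 at 0 h and 126 without replicate 3 at 0 h. In the germline list 7 genes were higher at 12 h than at those 3 times with the deposited factors and 3 after rescaling (Mov10l1, Sycp1 and Stag3). Il7, which encodes the lymphoid growth factor interleukin 7, went from 170, 194 and 183 scaled reads at 0 h to 612, 879 and 733 at 12 h, by 2.00 (SE 0.13), and stood 1.68 above 0 h at 24 h. Its place above 24 h was called with the deposited factors only. Acyp2 (1.08), Clvs2 (1.03) and Ankrd55 (1.44) were higher at 12 h than at 0, 3 and 24 h under both scalings. Itga1, Calcoco2 (an autophagy receptor gene, -0.64) and Mir302a were lower at 12 h than at 0, 3 and 24 h after rescaling.

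Counts in other lists moved with single libraries, and stand beside 12.9% higher and 2.07% lower over all genes (15.8% and 14.9% after rescaling). Of 345 tested Zfp genes, many of which encode KRAB zinc finger proteins, 61 rose and 3 fell, and 66 and 27 after rescaling. The 61 became 155 without replicate 1 at 12 h, 23 without replicate 2 at 12 h, 31 without replicate 3 at 12 h, 27 without replicate 1 at 0 h and 29 without replicate 3 at 0 h. Zfp37 went from 426, 448 and 414 to 968, 1236 and 1065 scaled reads (1.34, SE 0.13), with no overlap.

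Of 30 heterochromatin and silencing factors 3 were higher and 0 lower, and 3 and 7 after rescaling. The 3 became 11 without replicate 1 at 12 h and 1 without replicate 2 at 12 h, replicate 3 at 12 h, replicate 1 at 0 h or replicate 3 at 0 h. Atf7ip, which encodes a partner of SETDB1, kept its call without any of the 6 libraries, at 9739, 11410 and 10062 scaled reads at 0 h and 13720, 17268 and 14633 at 12 h (0.54, limma adjusted p 0.000246). Of 13 other H3K9 methyltransferase and demethylase genes 0 were called by limma (0 by edgeR, 3 higher at an unadjusted p under 0.05, 5 higher without replicate 1 at 12 h), and 2 were higher after rescaling.

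Of 20 p53 targets 0 were higher and 0 lower by limma (0 by edgeR, 1 higher at an unadjusted p under 0.05, 1 higher by limma without replicate 1 at 12 h), and 0 and 8 after rescaling. Of 18 interferon and RNA-sensing genes, which respond to double-stranded RNA, 0 were higher and 1 lower, and 4 and 0 without replicate 1 at 12 h. The lower one was Oasl2 (-0.42), a call lost without replicate 1 at 0 h (limma adjusted p 0.111), replicate 3 at 0 h (0.116) or replicate 1 at 12 h (0.117). Of 29 imprinted genes 4 were higher and 0 lower, and 5 and 10 after rescaling. The 4 became 8 without replicate 1 at 12 h, 1 without replicate 3 at 12 h, and 0 without replicate 2 at 12 h, replicate 1 at 0 h or replicate 3 at 0 h.

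Lists of metabolism and growth also moved with the scale and with single libraries. Higher and lower were 4 and 0 of 16 glycolysis genes, 4 and 2 of 28 cell cycle genes, 4 and 1 of 16 stress response genes, 2 and 0 of 21 cholesterol synthesis genes and 1 and 0 of 14 housekeeping genes. After rescaling these were 4 and 4, 6 and 5, 3 and 4, 2 and 3, and 3 and 2. Without replicate 1 at 12 h the higher counts were 7, 14, 8, 5 and 6, and without replicate 2 at 12 h they were 0, 0, 1, 2 and 0. Without replicate 1 at 0 h they were 0, 0, 1, 2 and 0, without replicate 3 at 0 h they were 1, 0, 1, 2 and 0, and without replicate 3 at 12 h they were 1, 0, 2, 2 and 0. Among markers of other cell types, 1 of 8 tested feeder genes was higher, 0 of 12 trophectoderm genes were called by limma (1 lower by edgeR, 2 higher and 1 lower at an unadjusted p under 0.05) and 2 of 12 primitive endoderm genes were lower. Without replicate 1 at 12 h these were 2 higher, 3 higher, and 1 higher and 1 lower, and the 2 lower became 0 without replicate 3 at 12 h and 1 without each of the other libraries.

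Units of the class named ncRNA in the table, called non-coding units here, differed by position. Of 15730 tested units 4617 were called higher (29.4%) and 1748 lower (11.1%), and after rescaling 4211 (26.8%) and 3436 (21.8%). With the minimum set at 0 h the calls were nearly even, at 1959 higher and 1890 lower of 14506. The median log2 change was then -0.11 in place of 0.10. That minimum selects on 1 side of the comparison, which favours falls. With the minimum set over 0 h and 12 h together, 3382 were higher and 1756 lower of 15310 (median 0.01). The size of the excess of higher units thus depends on the minimum. Of 2629 units over an ERVK copy on the same strand 2061 (78.4%) were higher and 47 lower (29 lower without replicate 3 at 0 h), with 1984 and 125 after rescaling. With the minimum set at 0 h the same class had 699 higher and 46 lower of 1229. Over other LTR copies 479 of 1111 were higher and 52 lower (32 lower without replicate 1 at 12 h). A unit at chromosome 3, 45103201-45146201, over an ERVK copy went from 2.44, 0 and 1.71 scaled reads to 594, 821 and 732, the largest change of all units under the naming rule. In 32.3% of tested units all 12 h libraries lay above all 0 h libraries, and in 17.4% below.

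Units antisense inside genes leaned the other way. Of 2938 such units 320 were higher and 577 lower, and 264 and 1042 after rescaling. Over all tested units 29.4% were higher and 11.1% lower, and 26.8% and 21.8% after rescaling. One at chromosome 16, 91716001-91716601, went from 22.8, 21.6 and 22.3 to 5.92, 7.28 and 4.39, by -1.78 (SE 0.37; limma adjusted p 0.000142). Divergent units at gene starts, made by the same promoter regions as genes, were mostly without a call. With the deposited factors 129 were higher and 113 lower of 2735. After rescaling these were 72 and 447, a smaller share lower than the 21.8% over all units. The 129 and 113 became 67 and 120 without replicate 2 at 12 h, 114 and 70 without replicate 2 at 0 h, and 92 and 62 without replicate 3 at 0 h. The 577 lower antisense units became 337 without replicate 3 at 0 h. Intergenic units without an LTR copy split into 1557 higher and 904 lower of 5867, and 1410 and 1571 after rescaling, so the larger direction flipped with the scale. It also flipped with the deposited factors when the minimum was set at 0 h, which favours falls (691 higher and 988 lower of 5766, median -0.21). Without replicate 3 at 0 h the counts were 1466 and 570.

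The authors' deposited table lists 322 genes as up and 25 as down at 12 h, beside 348 and 37 called here at 2-fold or more. Of the up genes 307 were tested here, and all 307 were also called higher by limma (15.6% of limma's 1972). All 25 down genes were called lower (7.91% of limma's 316). The smallest absolute log2 change among those shared genes was 0.97 for the up and 1.03 for the down genes. Among repeat copies the authors' deposited table lists 3033 as up, of which 2317 were tested here and 2190 were among limma's 2813, and 51 as down.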

How the data were processed

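TT-seq libraries of 0, 3, 12, 24 and 48 h (3 each, every one sequenced in 2 runs) were used as deposited. The authors' values are a signal, reads per unit divided by 1 factor per library; per the submitters' processing notes STAR 2.5.2a, DESeq2, deepTools and mm10 (GRCm38) were used. The counter, strand setting, treatment of multiple alignments, annotation and basis of the factors: not given in the sources used here. Labels call the libraries biological repeats and do not say whether they were separate cultures, so p-values measure the spread between these libraries. Column names give time and replicate. Whole reads were recovered for at least 99.9972% of values (tolerance 0.05 reads), and replicates differed by more than sampling noise (chi-square per degree of freedom 1.56 to 3.21).

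limma 3.58.1 (R 4.3.3) with an intensity trend was fitted to log2(value + 1) over all 15 libraries together, separately for genes, repeat families (summed copies), copies and non-coding units with a mean of at least 10. Benjamini-Hochberg adjustment was within each class. The design named edgeR for raw counts and limma for scaled values, and the files held scaled values. With the deposited factors limma's prior degrees of freedom were infinite for genes and families, so their SE and p rest on the intensity trend alone; after rescaling over genes (median of ratios without Rn45s) the prior was 21.4 and 18.7. For most of the steepest changes the text therefore prints the rescaled adjusted p, while SE are those of the deposited scaling. The members and lists were chosen with earlier results of these data known.

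Named genes were the 15 with the largest rise and the 15 with the largest fall among genes with ordinary symbols, called under both scalings, above the lowest-signal 25% and with no overlap between groups, the genes of the genotype label, and up to 4 genes per list by adjusted p; likewise the largest changes among families (with that of most signal in each repeat group), copies, units and genes highest or lowest at 12 h. Cd209e, Clec2d, Sp110, E2f6, Mga, Pou5f1, Sox2, Esrrb, Larp7, Tiparp, the other miRNA genes and further germline genes were named after their values were seen. Overlaps with repeats (at least 50 bp) were found with bedtools 2.31.1. Promoter windows and miRNAs came from RefSeq tables (GRCm38.p6); 20039 of 20541 gene symbols matched, and 444 more by an older symbol. Alternatives covered scaling, pseudocount, filters, the variance model, edgeR 4.0.16 and DESeq2 1.42.0 on recovered reads, the replicate block and leaving out each library. The fits were tested on simulated data. Intervals and floors cover counting error only.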

Additional observations from a re-analysis of the deposited data

How the results depend on the processing

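Gene calls numbered 2288 with the deposited factors, and 4677 rescaled over genes, 4712 with TMM factors and 4983 with edgeR and TMM; leaving out 1 library gave 1194 to 5547. Family calls (258) ranged from 163 to 374, copy calls (3061) from 2574 to 3099 and unit calls (6365) from 5421 to 6025 when a library was left out. Copy calls were 752 with the minimum set at 0 h, 1839 with it set over 0 and 12 h and 1065 with a minimum of 50, where fewer copies were tested; unit calls were 3849 with the minimum at 0 h and 2655 with 50. The 456 genes with an extreme at 12 h became 288 after rescaling, 286 with TMM, 301 with edgeR and TMM, 109 without the intensity trend, 872 with the replicate block, and 19 to 3290 when a library was left out; a fit on 0 and 12 h alone gives no such result. The cause of these moves was not tested.

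Of 172 named results, all kept direction and side of the threshold with pseudocounts of 0.5 and 5. Rescaling reversed Suv39h2 (-0.0598), Polk (-0.0187), ORR1A2 (-0.12) and ID_B1 (-0.00918), none of them called. With a library left out, ORR1A2 ranged from -0.0130 (without 12 h replicate 2) to 0.109, and 7SK from -0.0655 to 0.0541 (without 12 h replicate 1), with 0.03 without 0 h replicate 3.

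Libraries of the same replicate number at 0 h and 12 h did not deviate together gene by gene (correlations -0.04, 0.03 and 0.00446). Such correlations cannot see a shift of a whole library. The log2 rescaling factor of replicate 2 was the highest at 0 h (0.18), 12 h (0.46), 24 h (0.25) and 48 h (-0.22), and the lowest at 3 h (-0.25). Whether same-numbered libraries were paired is therefore not settled here. With the replicate block 2989 genes, 287 families, 3061 copies and 6431 units were called.

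Depth was similar in all 6 libraries (37.1 to 42.3 M reads). It limits single copies, receptor genes and miRNA hairpins with few reads, where 0 reads at 0 h gives a lower bound only. Whether the median shift of genes is a change in the cells or in the factors cannot be told apart here.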
